A study of Homo sapiens with 9 samples.

Results

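The plasminogen activator system was followed through 5 genes: the protease urokinase (PLAU), its cell-surface receptor (PLAUR), the tissue-type activator (PLAT), and the serpins SERPINE2 and SERPINB2, which inhibit the activators. They were taken by symbol, as 5 of the 78894 Ensembl gene identifiers measured. All 5 reached the level required for testing, at least 1 TPM in at least 2 distinct libraries. TPM is a gene's length-corrected share of the transcripts in a library. RNA came from CAL27 cells, an established line from a tongue squamous cell carcinoma, in a study of an enhancer in head and neck cancer. The labels give 3 samples of Control CAL27 cells, with library names that begin with WT, and 2 samples each of the CRISPR knockouts A2ko, A8ko and C9ko, all without treatment. They name neither the edited sequence nor, for any knockout, whether it is a clone or a pool, so no target gene could be checked.

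The files of the 2 A2ko samples were identical at every identifier, and so were those of the 2 A8ko samples. Counting each identical pair once left 7 distinct libraries, of which 3 were Control, 2 C9ko, 1 A2ko and 1 A8ko. The differences of A2ko and A8ko from Control have no replicate check and carry no p-value. The number of genes at 1 TPM or more ran from 15556 to 16716 per library, and mitochondrial transcripts took 23.1% to 26.9% of the TPM in Control, 20.2% and 17.9% in C9ko, 20.6% in A8ko and 25.2% in A2ko, so that C9ko and A8ko were below every Control library. The TPM of A2ko summed to 129.8 more than the nominal total, which the other libraries met within rounding. All 6 squamous or basal epithelial markers, among them KRT5 and TP63, were above 1 TPM, with a sum of 13931 to 15057 TPM in Control and 5689 to 8590 TPM in the knockouts. KRT5 and KRT14, which made up most of the sum, were below Control in all 4 knockout libraries. CDH1, E-cadherin, was above Control in all 4, with a Control mean of 103.8 TPM against 138.3 to 177.0, and TP63 was above Control in C9ko and below it in A8ko and A2ko. KRT17 was above Control in A2ko, below it in A8ko and within its range in C9ko. EPCAM was above Control in A8ko and C9ko and below it in A2ko. The 4 leukocyte markers summed to 42.3 to 50.4 TPM in Control and 59.3 to 82.8 TPM in the knockouts, nearly all from CD14 and CD68, while PTPRC stayed at or below 0.0232 TPM. In C9ko both genes differed in opposite directions, CD14 from a Control mean of 15.7 to 51.7 TPM and CD68 from 29.7 to 14.2 TPM. Differences below are in log2(TPM + 1), a scale on which changes at low levels appear smaller than they are. For the 17100 tested genes as a whole the median difference was 0.11 in C9ko, 0.09 in A8ko and 0.12 in A2ko, and -0.01, 0.00 and 0.00 after the libraries were scaled by the median of ratios.

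Urokinase and the tissue-type activator are serine proteases that cleave plasminogen, a blood-borne zymogen, into plasmin, which degrades fibrin and parts of the extracellular matrix. The urokinase receptor holds urokinase at the cell surface, and serpins inactivate both activators by forming a covalent complex with them. In squamous carcinomas, urokinase and its receptor are known markers of the invasive front, and SERPINB2 is a serpin of stratified squamous epithelium.

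Sequence next to the start sites was taken from RefSeq (GRCh38.p14), which gave 6 windows of 250 bases upstream for 4 of the 5 genes, PLAU, PLAUR, SERPINE2 and SERPINB2. The binding site of AP-1, a transcription factor known to act on PLAU and PLAUR, was searched on both strands as TGAGTCA and its reverse complement TGACTCA. It was present in 1 of the 6 windows and in 4.20% of the 35116 such windows of all genes. The match was in the window of PLAUR, and its part in the differences of PLAUR was not tested. Sites beyond the 250 bases were not searched. The match is shown in 30 bases read on the minus strand (chr19:43670337-43670366), with the heptamer in capitals. The window lies upstream of the RefSeq start but wholly inside an annotated PLAUR exon of GENCODE (43670066 to 43670547), so these bases are exonic in that transcript, and another PLAUR transcript has an exon that reaches into them (to 43670350).
PLAUR: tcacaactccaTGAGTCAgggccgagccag
The windows of SERPINE2 (chr2:224031479-224031728, minus strand) and SERPINB2 (chr18:63887455-63887699, plus strand) are shown because these inhibitors differed from Control in opposite directions in A2ko and A8ko. Neither contains the heptamer, and no capitals are marked. The SERPINB2 window is cut to its first 245 bases, because the rest lies in an annotated SERPINB2 exon (from 63887700).
SERPINE2: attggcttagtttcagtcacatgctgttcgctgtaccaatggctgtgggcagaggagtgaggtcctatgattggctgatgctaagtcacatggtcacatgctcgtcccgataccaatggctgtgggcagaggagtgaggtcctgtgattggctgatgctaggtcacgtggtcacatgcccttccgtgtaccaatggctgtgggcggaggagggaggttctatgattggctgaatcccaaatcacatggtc
SERPINB2: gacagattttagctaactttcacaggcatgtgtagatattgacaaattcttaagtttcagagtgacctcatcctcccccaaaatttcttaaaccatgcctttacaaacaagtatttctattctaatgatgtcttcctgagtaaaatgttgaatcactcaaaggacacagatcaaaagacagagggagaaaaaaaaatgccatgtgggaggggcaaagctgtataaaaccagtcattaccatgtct
The SERPINE2 window shown held 53.2% G and C, and the SERPINB2 window as cut 37.1%. This SERPINE2 window lies inside the annotated gene (223975112 to 224039319, minus strand). The window of a further start site of SERPINE2, nearer the start of the gene (224038641 to 224038890), held 75.2%. That window and the windows of PLAU also overlap annotated exons, hold no heptamer and are not shown.

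In C9ko, the knockout with replicates, both activators and the urokinase receptor rose, and neither inhibitor passed the test. PLAUR rose most of the 5, to 3.59 times its Control level in TPM, PLAU to 1.89 times and PLAT to 1.55 times. With limma, 3 of the 5 passed an adjusted p-value under 0.05, all higher. Of all tested genes 29.5% were called in C9ko, 22.0% higher and 7.42% lower. This split depended on the scaling, as median-of-ratios scaling gave 15.4% higher against 12.8% lower, and rescaling without mitochondrial transcripts gave 17.0% against 11.0%. Without these transcripts the same 3 genes were called, with log2 differences of 0.81 for PLAU, 1.71 for PLAUR and 0.52 for PLAT. PLAUR alone of the 5 was called higher by at least 1 log2 unit, against 3.25% of all tested genes. Nothing in the labels says that samples of a group were grown separately, so these p-values measure only the spread between the samples.

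In A2ko and A8ko, where a gene was counted if it was beyond every Control library and its distance to the Control mean was 1 log2 unit or more, the inhibitors differed from Control in opposite directions. SERPINB2 was counted as lower in both, and SERPINE2 as higher in A2ko. A2ko had 2 of the 5 genes counted, 1 higher and 1 lower, against 5.07% of all tested genes, 3.54% higher and 1.53% lower (2.76% against 1.94% with median-of-ratios scaling). A8ko had 3 counted, PLAU and PLAUR higher and SERPINB2 lower, against 4.73% of all tested genes, 2.05% higher and 2.68% lower. When each Control library was held against the other 2, none of the 5 genes was counted, against 0.614% to 0.661% of all tested genes.

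**Figure D1:**
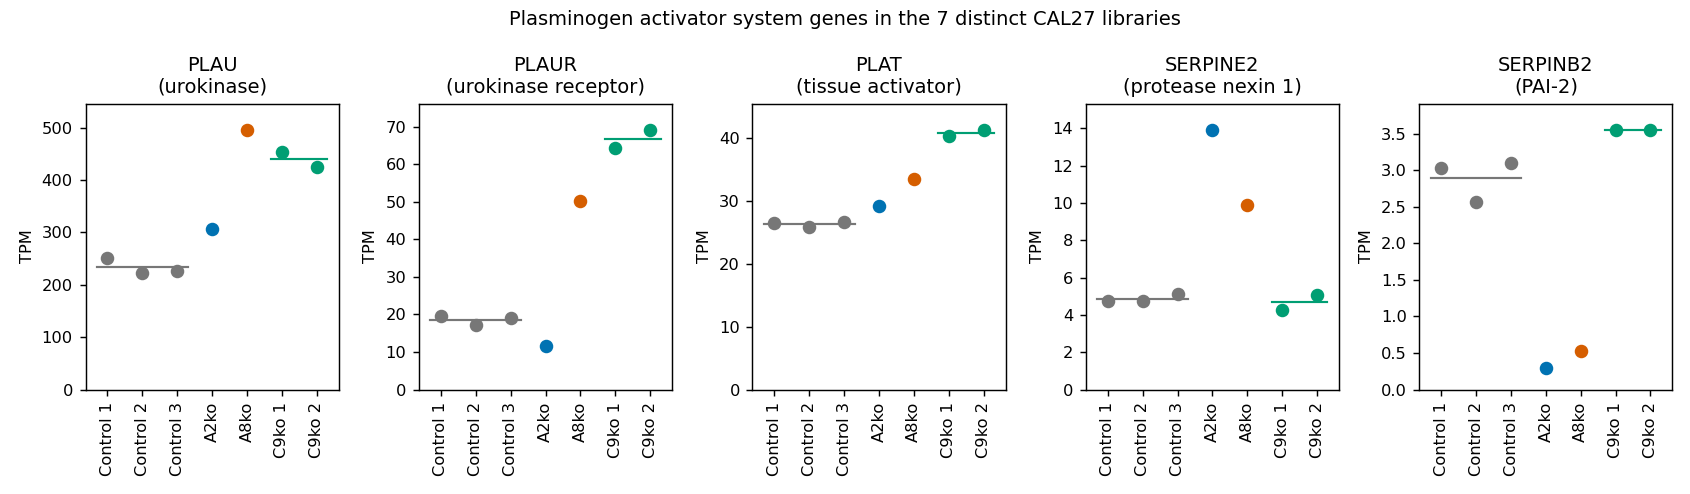
TPM of the 5 genes (vertical axis, from 0) in the 7 distinct libraries (horizontal axis), with 1 point per library and lines at the means of Control and C9ko. PLAUR reached 64.3 and 69.2 TPM in C9ko and 11.6 TPM in A2ko, and SERPINB2 was at 0.290 TPM in A2ko and 0.531 TPM in A8ko.

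PLAU (ENSG00000122861, chromosome 10, 73909177 to 73917497, plus strand, hg38) encodes urokinase. It was the most abundant of the 5 in every library and lay at percentile 96.9 of the tested genes by its Control mean. Its values were 251.2, 221.5 and 226.5 TPM in Control, 453.7 and 425.2 in C9ko, 496.0 in A8ko and 306.8 in A2ko. All 4 knockout libraries lay above all 3 Control libraries, and A2ko lay nearest to them. PLAU averaged 233.0 ± 15.9 TPM in Control (SD, n = 3) and 439.5 ± 20.1 TPM in C9ko (SD, n = 2), a rise of 0.91 log2 units (SE 0.08, limma adjusted p 0.000290). The difference was 0.40 in A2ko and 1.09 in A8ko. After scaling by the median of ratios the A8ko value was 0.99, just under the 1 log2 unit that the count requires. PLAU overlaps C10orf55 on the other strand, which was at 4.80 to 9.58 TPM, and the use of strand in counting is not given in the sources used here.

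PLAUR (ENSG00000011422, chromosome 19, 43646095 to 43670547, minus strand) encodes the urokinase receptor, which is anchored in the membrane by a lipid and also binds vitronectin. Its values were 19.6, 17.2 and 19.0 TPM in Control, 64.3 and 69.2 in C9ko, 50.3 in A8ko and 11.6 in A2ko. A8ko and both C9ko libraries were above every Control library, and A2ko was below every one. PLAUR averaged 18.6 ± 1.22 TPM in Control (SD, n = 3) and 66.7 ± 3.45 TPM in C9ko (SD, n = 2), a rise of 1.79 log2 units (SE 0.08, limma adjusted p 2.58e-05). The difference was 1.39 in A8ko and -0.63 in A2ko, where the Control mean was 1.60 times the A2ko value.

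PLAT (ENSG00000104368, chromosome 8, 42175233 to 42207724, minus strand) encodes the tissue-type activator, which acts mainly on fibrin and is typical of endothelial cells. Its values were 26.4, 25.7 and 26.6 TPM in Control, 40.2 and 41.3 in C9ko, 33.4 in A8ko and 29.2 in A2ko. The Control libraries were tightly grouped and all knockout libraries were above them, C9ko farthest. PLAT averaged 26.3 ± 0.455 TPM in Control (SD, n = 3) and 40.8 ± 0.726 TPM in C9ko (SD, n = 2), a rise of 0.62 log2 units (SE 0.06, limma adjusted p 0.000564). The difference of 0.34 in A8ko was 0.24 after scaling by the median of ratios. That of 0.15 in A2ko was 0.02 after this scaling, so A2ko was hardly above Control relative to the other genes. Of the 4 endothelial markers fixed for the check of cell type, CDH5 alone reached 1 TPM, at 3.21 to 4.27 TPM in Control, 21.9 and 29.9 in C9ko, 8.15 in A8ko and 12.6 in A2ko. The sum of these markers was 3.51 to 4.55 TPM in Control and 8.63 to 30.1 TPM in the knockouts, while KDR was listed at 0 in all libraries and PECAM1 and VWF stayed at or below 0.304 TPM.

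SERPINE2 (ENSG00000135919, chromosome 2, 223975112 to 224039319, minus strand) encodes protease nexin 1, a secreted inhibitor of thrombin, urokinase and the tissue-type activator. Its values were 4.73, 4.76 and 5.14 TPM in Control, 4.27 and 5.07 in C9ko, 9.89 in A8ko and 13.9 in A2ko. A2ko and A8ko were above all Control libraries, and the C9ko libraries overlapped with Control. The difference was 1.35 in A2ko, where the level was 2.86 times the Control mean, and 0.89 in A8ko, where it was 2.03 times. With a pseudocount of 0.1 the A8ko difference was 1.01, so that the gene would be counted there too. In C9ko it was -0.05 (95% interval -0.29 to 0.18, limma adjusted p 0.711), with 1 library below all Control libraries and 1 within their range. The 4 fibroblast markers summed to 7.95 to 9.30 TPM in Control, 10.2 and 11.2 in C9ko, 6.92 in A8ko and 15.5 in A2ko. COL1A1 made up most of the A2ko sum with 13.4 TPM, while DCN was at or below 0.15 TPM and PDGFRB at or below 0.75 TPM in all libraries. The part of these markers in the A2ko value was not tested.

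SERPINB2 (ENSG00000197632, chromosome 18, 63871692 to 63903890, plus strand) encodes PAI-2, an inhibitor of urokinase that is largely kept inside the cell. Its values were 3.03, 2.56 and 3.09 TPM in Control, 3.55 in each C9ko library, 0.531 in A8ko and 0.290 in A2ko. A2ko and A8ko were far below all Control libraries, and both C9ko libraries were just above them. The Control mean was 10.0 times the A2ko value and 5.45 times the A8ko value, and the log2 differences were -1.59 and -1.34. In C9ko the difference was 0.23 (95% interval -0.08 to 0.53, limma adjusted p 0.223), which did not pass the test. The depth of the libraries is unknown, so the counting error behind values under 1 TPM cannot be given. SERPINB2 overlaps SERPINB10 on the same strand, which was at or below 0.29 TPM in all libraries.

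**Figure D2:**
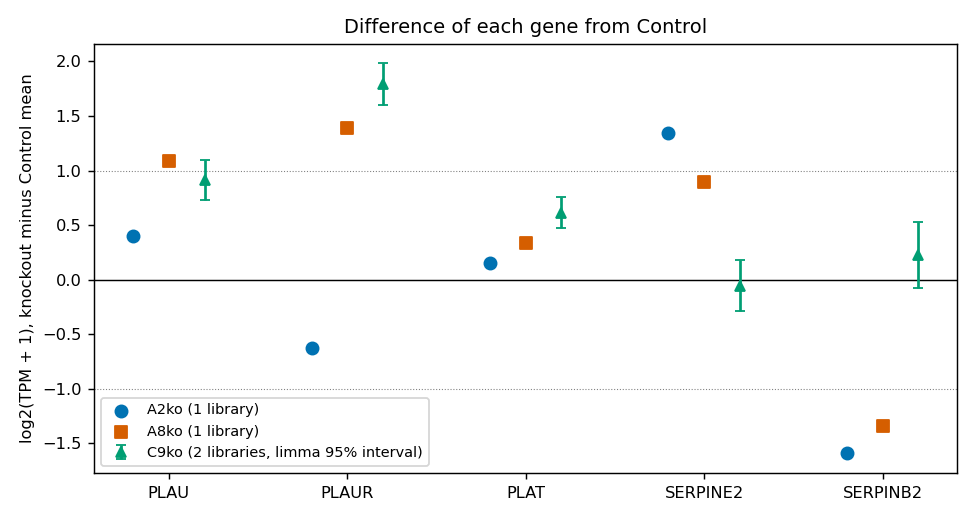
Difference from the Control mean in log2(TPM + 1) (vertical axis) for each gene (horizontal axis) in A2ko (circles), A8ko (squares) and C9ko (triangles with limma 95% intervals); dotted lines mark 1 log2 unit either way. The C9ko intervals of SERPINE2 and SERPINB2 include 0, whereas A2ko and A8ko lie at 0.89 to 1.35 for SERPINE2 and at -1.59 to -1.34 for SERPINB2.

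The order of the levels differed between groups. In all 3 Control libraries it ran PLAU, PLAT, PLAUR, SERPINE2 and SERPINB2 from high to low, and the values of neighbours in that order did not overlap between Control libraries. In A8ko and both C9ko libraries PLAUR stood above PLAT. In A2ko PLAUR stood below SERPINE2, at 11.6 against 13.9 TPM. As quantities chosen after the values were seen, the ratio of PLAU to PLAUR in TPM was 11.9 to 12.9 in Control, 7.06 and 6.15 in C9ko, 9.87 in A8ko and 26.4 in A2ko. The ratio was thus above the Control range in A2ko and below it in A8ko and C9ko.

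The summed TPM of SERPINE2 and SERPINB2, also chosen after the values were seen, was 7.32 to 8.23 in Control, 7.83 and 8.62 in C9ko, 10.4 in A8ko and 14.2 in A2ko. A2ko and A8ko were above the Control range, whereas 1 C9ko library was within it and 1 above. SERPINE2 made up 61.0% to 65.0% of the sum in Control, 54.6% and 58.8% in C9ko, 94.9% in A8ko and 97.96% in A2ko.

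**Figure D3:**
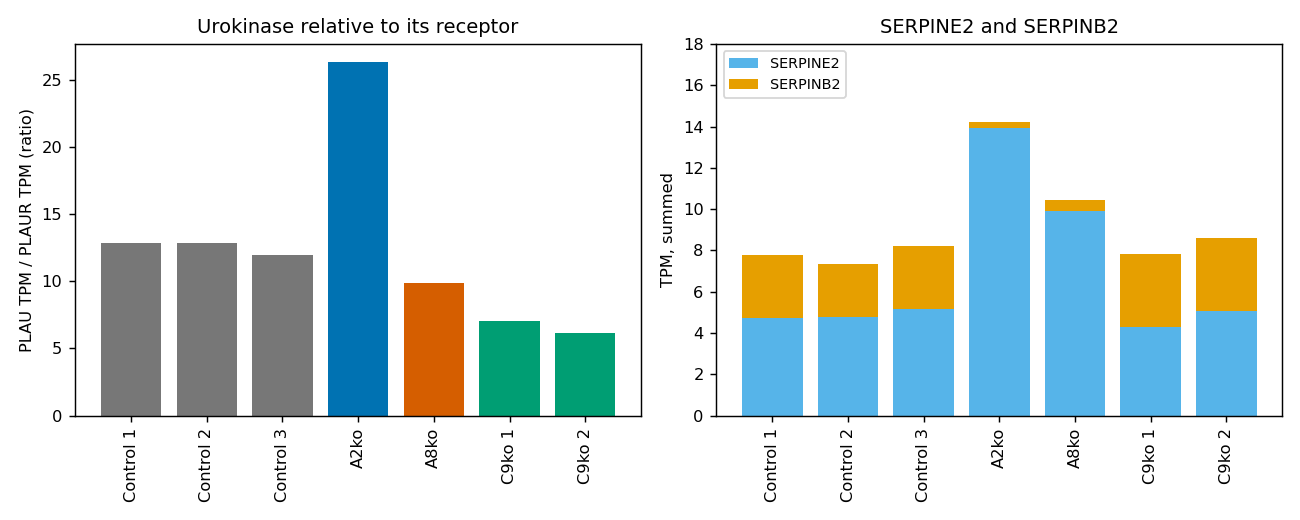
Left, ratio of PLAU to PLAUR in TPM in each distinct library; right, TPM of SERPINE2 and SERPINB2 stacked in each library (both vertical axes from 0). The ratio was 26.4 in A2ko against 11.9 to 12.9 in Control, and the sum was 14.2 in A2ko and 10.4 in A8ko against 7.32 to 8.23 in Control.

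A comparison of all knockouts with Control took each knockout group as 1 value, so that the spread between groups counted as error. Limma called 0 of the 5 genes, against 1.03% of all tested genes, and 2 of the 5 had an unadjusted p under 0.05, against 16.0% of all tested genes. PLAU differed by 0.80 log2 units (95% interval 0.37 to 1.23, limma adjusted p 0.107), in the same direction in 4 of 4 knockout libraries. PLAT differed by 0.37 (95% interval 0.06 to 0.68, limma adjusted p 0.245), also in 4 of 4. The intervals of PLAUR, SERPINE2 and SERPINB2 all included 0. For PLAUR it ran from -0.50 to 2.21, with A2ko on the other side of Control from A8ko and C9ko. Without A2ko the fit called 11.7% of all tested genes and 3 of the 5, PLAU at 1.001 (adjusted p 0.00264), PLAUR at 1.59 (adjusted p 0.00190) and PLAT at 0.48 (adjusted p 0.0344). The same fit called 0 of the 5 without A8ko and 0 of the 5 without C9ko, where it called only 126 and 67 of the 17100 tested genes.

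The rest of the pathway was described by 30 further genes, of which 20 were expressed enough to be tested. Plasminogen itself (PLG) was among the 10 that were not, and was at or below 0.0113 TPM in all libraries. In C9ko 13 of the 20 were called, 8 higher and 5 lower, where 22.0% of all tested genes were called higher and 7.42% lower, and the median difference was 0.20, against 0.11 over all tested genes. In A2ko 1 was counted as higher and 1 as lower (all tested genes 3.54% and 1.53%), with a median of -0.05 against 0.12. In A8ko 1 was higher and 2 were lower (all tested genes 2.05% and 2.68%), with a median of -0.13 against 0.09. In the comparison of all knockouts limma called none of the 20 (1, LYPD3, lower, when rescaled without mitochondrial transcripts), and 6 had an unadjusted p under 0.05, against 16.0% of all tested genes. None was counted when a Control library was held against the other 2.

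Among 4 tested inhibitors of the list, SPINT1 and SPINT2, which encode inhibitors of membrane serine proteases, were called higher in C9ko, and none was called lower. Over all tested genes 22.0% were called higher in C9ko and 7.42% lower. None of the 4 was counted in A2ko or A8ko, although SPINT1 was below every Control library in A8ko and above every one in A2ko. SPINT2 was above every Control library in A8ko and within their range in A2ko. SPINT1, SPINT2 and the other pathway genes given without values are named to resolve small counts, after their values were seen.

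Among proteases that process pro-urokinase or act beside it, 3 of 4 tested genes rose in C9ko and none fell. These were ST14, which encodes matriptase, an activator of pro-urokinase, PRSS8, which encodes prostasin, and CTSB, which encodes cathepsin B. The shares over all tested genes were 22.0% higher and 7.42% lower in C9ko, or 15.4% and 12.8% with median-of-ratios scaling. With median-of-ratios scaling CTSB was not called in C9ko, and in A8ko and A2ko it was below every Control library. Of the docking proteins for plasminogen, PLGRKT rose and S100A10 fell in C9ko, and ANXA2 and ENO1 did not pass the test.

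LRP1, an endocytic receptor that clears complexes of urokinase and its inhibitors together with the urokinase receptor, differed in opposite directions. Its level was 4.95, 5.61 and 5.88 TPM in Control, 2.20 and 2.29 in C9ko, 2.12 in A8ko and 13.7 in A2ko. It was counted as higher in A2ko, at 1.18, and as lower in A8ko, at -1.05. The C9ko difference was -0.99 (SE 0.11, limma adjusted p 0.000725). Of the other 3 receptors, MRC2, a collagen receptor that associates with the urokinase receptor, fell in C9ko, and IGF2R, which also binds it, rose.

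The cofactors of clotting differed as well. F3, tissue factor, the starter of coagulation, had 532.5, 533.0 and 521.1 TPM in Control, 951.7 and 997.5 in C9ko, 1268 in A8ko and 433.7 in A2ko. A8ko and C9ko were above Control and A2ko below it. The C9ko rise of F3 was 0.88 log2 units (SE 0.06, limma adjusted p 0.000150), and the difference was 1.26 in A8ko and -0.29 in A2ko. THBD, thrombomodulin, which turns thrombin into an anticoagulant enzyme, had 47.2, 46.5 and 46.4 TPM in Control, 20.8 and 22.7 in C9ko, 18.2 in A8ko and 8.64 in A2ko. All 4 knockout libraries were below Control. The C9ko difference of THBD was -1.07 (SE 0.07, limma adjusted p 9.91e-05), and the difference was -2.31 in A2ko and -1.31 in A8ko. LYPD3, a relative of the urokinase receptor, also fell in C9ko, and LYPD5, another relative, did not pass the test.

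**Figure D4:**
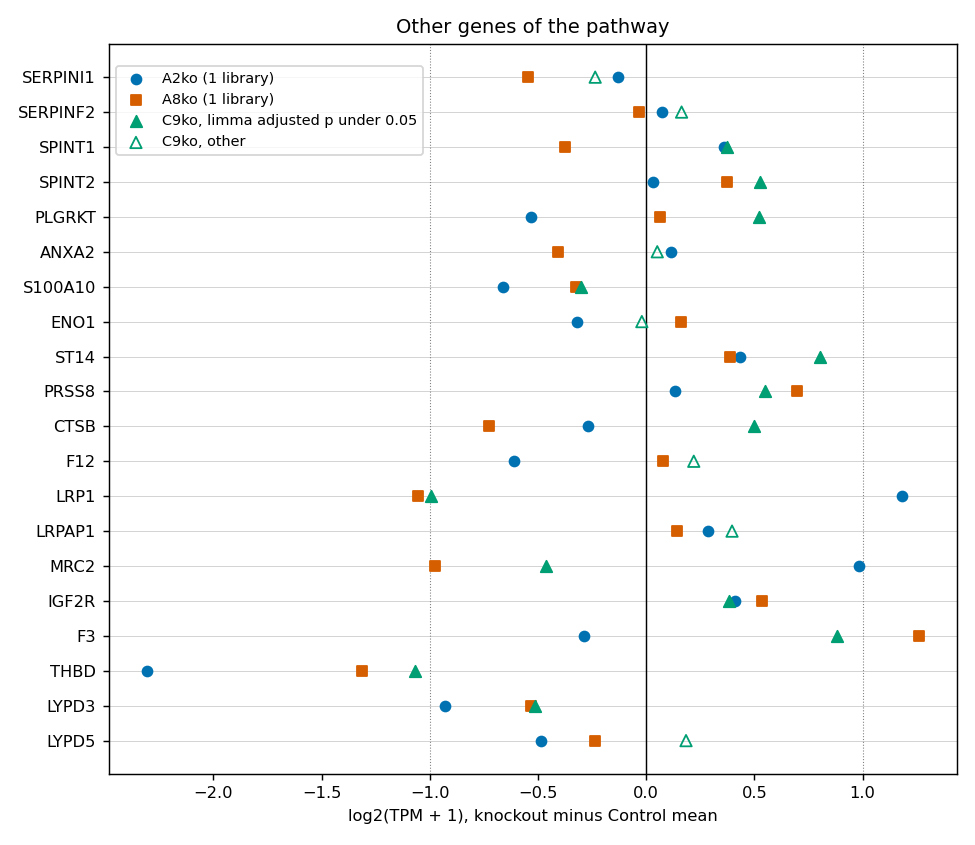
Difference from the Control mean in log2(TPM + 1) (horizontal axis) for the 20 tested pathway genes (vertical axis) in A2ko, A8ko and C9ko; filled triangles were called in C9ko, and dotted lines mark 1 log2 unit either way. THBD lies left of -1 in all 3 knockouts, and LRP1 lies at 1.18 in A2ko and near -1 in A8ko and C9ko.

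For each of the 5 genes, the 3 genes with the most similar pattern over the 7 distinct libraries were found by Pearson's r of log2(TPM + 1) among up to 10968 tested genes with a mean of at least 5 TPM. The libraries of a group share their state and the Control libraries, so r describes these libraries only. PLAU was most like NFKBIE (r 0.993), SLC16A3 (0.992) and PTPMT1 (0.991). PLAUR was most like HCAR3 (0.999), CCND1 (0.998) and ZC3H12A (0.998). ZC3H12A, for example, had a Control mean of 53.0 TPM against 126.6 and 135.1 in C9ko, 115.7 in A8ko and 36.3 in A2ko, which is the order seen for PLAUR. PLAT was most like IL7R (0.999), WDR6 (0.998) and C15orf48 (0.997). SERPINE2 was most like RHOQ (0.993), NPIPA9 (0.992) and HS1BP3 (0.990), and SERPINB2 was most like APOL3 (0.989), CAVIN2 (0.983) and IRF1 (0.983). IRF1 had a Control mean of 126.9 TPM against 125.0 and 132.0 in C9ko, 89.3 in A8ko and 75.7 in A2ko, so that, as for SERPINB2, A2ko and A8ko alone stood apart from Control by a wide margin.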

How the data were processed

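RNA sequencing libraries were made from polyA RNA by the dUTP method, per the labels' protocols. The deposited values are TPM per Ensembl gene identifier, computed by the authors on hg38, per the submitters' processing notes. The aligner, quantification tool, annotation release and use of strand are not given in the sources used here. TPM keeps no depth, so no counting interval is given. In both A2ko files the header names 1 and the same library, as in both A8ko files, and identical files were counted once.

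Identifiers were matched to symbols (61463 of 78894 had one) and positions were taken from GENCODE release 29 on GRCh38 (57342 found). Values were analysed as log2(TPM + 1) for the 17100 genes with at least 1 TPM in at least 2 distinct libraries. Limma 3.58.1 in R 4.3.3 (lmFit, eBayes with trend) fitted all 4 groups for C9ko against Control, and 3 knockout group means against 3 Control libraries for all knockouts, with Benjamini-Hochberg adjustment across the 17100 genes and calls at an adjusted p under 0.05. The fits were tested on simulated data. A2ko and A8ko, with 1 distinct library each, were described by the range and 1 log2 unit rule.

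The 5 genes and all lists were chosen with earlier results of these data known, and 1 listed gene is not reported here. Named were the 5 genes, pathway genes called in C9ko by at least 1 log2 unit or called in all knockouts, and those counted in A2ko or A8ko whose higher group averaged 5 TPM or more. Alternatives were the pseudocount, filters, scaling, mitochondrial transcripts, trend, pooling of groups, the replicate block and leaving out libraries.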

Additional observations from a re-analysis of the deposited data

Results flagged for a closer look

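Among the genes named by the rule above, the following are listed because knockout groups lay on opposite sides of every Control library. Other pathway genes, among them CTSB and MRC2, also met this and are not listed. With a single distinct library for A2ko and for A8ko, differences between knockouts were not tested. PLAUR was higher in A8ko and C9ko and lower in A2ko, and its group means spanned 2.42 log2 units. SERPINB2 was higher in C9ko and lower in A2ko and A8ko, with a span of 1.82, although its C9ko difference from Control did not pass the test. LRP1 was higher in A2ko and lower in A8ko and C9ko, with a span of 2.23. F3 was higher in A8ko and C9ko and lower in A2ko, with a span of 1.55.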

How the results depend on the processing

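PLAU, PLAUR and PLAT were called higher in C9ko in the main fit and in all 14 alternatives run, with differences of 0.78 to 0.97, 1.66 to 1.84 and 0.49 to 0.63 log2 units and limma adjusted p-values up to 0.0114, 0.00396 and 0.00827. SERPINE2 did not pass in C9ko in any alternative, and its sign turned to 0.047 without C9ko 1 (range -0.16 to 0.047 over left-out libraries). SERPINB2 did not pass in C9ko in any of 13 alternatives. The count of all genes called in C9ko was 3301 to 4174 over left-out libraries, with 3301 without C9ko 2, and 8166 with all 9 files as separate libraries. With the replicate number as a block in C9ko and Control only, 3248 genes were called, and the same 3 of the 5 genes. Whether the numbers pair the samples is not known. The difference between libraries 1 and 2 in C9ko correlated with that in Control at -0.04 over genes, and this single value cannot decide it. The block changed no call among the named genes.

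In all knockouts against Control, 176 genes were called, 5 to 165 over left-out libraries (11, 5 and 5 without Control 1, 2 and 3), 23 without a filter on low values, 1993 without A2ko, 67 without C9ko and 4361 with the knockout average in the fit of all 4 groups. Without the group A8ko, where 126 genes were called, or the group C9ko 0 of the 5 genes were called. Without A2ko 3 of the 5 genes were called (PLAU 1.001, PLAUR 1.59, PLAT 0.48), and with the knockout average all 5 were (PLAU 0.80, PLAUR 0.85, PLAT 0.37, SERPINE2 0.73, SERPINB2 -0.90), which does not count the spread between knockouts as error. Of the 176 genes 87 were higher and 89 lower, where median-of-ratios scaling gave 42 and 98. LRP1 turned from -0.29 to 0.094 without A8ko and to 0.064 without C9ko. The count of all genes was 867 in A2ko, 1813 with a pseudocount of 0.1 and 380 with a mean of at least 5 TPM, and 809, 1689 and 412 in A8ko. SERPINB2 failed that minimum mean, which left 1 of the 5 genes counted in A2ko and 2 in A8ko. Under the pseudocount of 0.1 its differences were -2.94 in A2ko and -2.24 in A8ko.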

Other observations

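Genes near the 5 were looked at for changes shared with a stretch of chromosome. Within 1 megabase of PLAU, 35 other genes were tested, of which none was counted in A2ko or A8ko and 7 were called higher in C9ko and none lower. Around PLAUR, 38 were tested. In A2ko 2 of them were counted as higher and 1 as lower, in A8ko 2 and 2, and in C9ko 7 were called higher and 3 lower. Of all tested genes 22.0% were called higher in C9ko and 7.42% lower, so the counts of higher genes around PLAU and PLAUR are near that background. The shares counted over all tested genes were 3.54% higher and 1.53% lower in A2ko, and 2.05% higher and 2.68% lower in A8ko. Around PLAT (15 tested) and SERPINE2 (5 tested) none was counted in A2ko or A8ko, and in C9ko 1 was called higher and 1 lower around PLAT and none around SERPINE2.

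SERPINB2 lies in a cluster of clade B serpins, and 12 other genes within 1 megabase were tested. In A8ko 3 of them were counted as lower, against 2.68% of all tested genes, and in A2ko none was counted. The 3 were SERPINB13, SERPINB3 and ATP5MC1P6, the last at only 0.129 TPM in A8ko. In C9ko 1 of the 12 was called higher and 3 lower, against 22.0% and 7.42% of all tested genes. The following genes were chosen after their values were seen. SERPINB13, a serpin of stratified epithelium, had 102.8, 96.5 and 94.9 TPM in Control, 35.6 and 35.8 in C9ko, 16.8 in A8ko and 88.3 in A2ko. SERPINB3, squamous cell carcinoma antigen 1, had 35.3, 36.8 and 35.7 TPM in Control, 40.01 and 42.4 in C9ko, 15.0 in A8ko and 60.3 in A2ko. SERPINB3 and SERPINB4 are nearly identical in sequence, so the value of each is uncertain. A2ko, which had the lowest SERPINB2 value, was thus above all Control libraries for SERPINB3 and below them for SERPINB13, and C9ko, where SERPINB2 was just above Control, was low for SERPINB13. The other clade B serpins tested there were SERPINB4, SERPINB5, SERPINB7 and SERPINB8. In A2ko SERPINB5 and SERPINB7 were below all Control libraries and SERPINB4 and SERPINB8 above them. In A8ko all of these were below Control, SERPINB8 only just. In C9ko SERPINB5 was below Control, SERPINB4 and SERPINB8 were above it, and SERPINB7 was near it.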
